A study of Rattus norvegicus with 2 samples.

Results

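Hydroxysteroid dehydrogenases are enzymes that oxidise or reduce a hydroxyl or keto group of a steroid and so switch hormones between active and inactive forms. Of the 1185 genes on the membranes, 4 were taken as members because their array names contain the family name. These were Hsd11b2 (spot RG278, position C10g), Hsd11b1 (R169, C05l), 20-alpha-hydroxysteroid dehydrogenase (R233, C05j, Akr1c3 in the RefSeq gene table and formerly Akr1c18) and a single spot for the 3-beta enzymes of types I, II and IV (RG460, C07a), whose signals cannot be told apart. The cells were primary cultures of carotid bodies from Sprague Dawley rats, each culture made from 16 carotid bodies, kept for 7 days at 21% oxygen (normoxia) or at a labelled level of 1% oxygen (chronic hypoxia). All cultures grew in medium with horse serum, fetal bovine serum and nerve growth factor, and 5% CO2 was present in both conditions. Each condition was measured on 3 nylon membranes with cDNA made from amplified RNA and labelled with 32P. The labels do not say whether the membranes came from separate cultures, so the p-values cover membrane-to-membrane spread, possibly only technical.

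As background, Hsd11b2 inactivates corticosterone, the main glucocorticoid of the rat, and is best known from aldosterone-responsive epithelium of kidney and colon, where it keeps glucocorticoid away from the mineralocorticoid receptor. Hsd11b1 mostly works in the opposite direction and regenerates active glucocorticoid, with high levels in liver. The 3-beta enzymes convert pregnenolone to progesterone early in steroid synthesis, and 20-alpha-hydroxysteroid dehydrogenase turns progesterone into a weaker product, as in the ovary.

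The membranes differed in level. A spot counted as above background on a membrane if it lay over the median by 3 spreads, with the spread taken from the values under the median. By this rule 72 to 205 genes were above background on a membrane, and 152 genes (12.8%) were above it on at least 3 of 6, while 867 of 1185 genes (73.2%) were above it on none. The median intensity was 16411 on chronic hypoxia membrane 3 and 1704 to 3409 on the other 5 membranes. Across the 1038 genes tested below, chronic hypoxia membranes 1 and 3 had a Pearson correlation of 0.84 in normalized log2 intensity, and the other 14 pairs of membranes had 0.47 to 0.67. These membranes may therefore not be separate replicates, so n = 3 in chronic hypoxia is as labelled and results are also given with both counted as 1. Of 8 markers of glomus (chemoreceptor) cells on the array, 4 (Slc6a3, Dbh, Cpe and Slc18a3) exceeded background on at least 3 membranes and 4 (Ddc, Slc18a2, Chga and Drd2) on 0. Of the markers of steroid-making cells, Cyp11a1, Cyp17a1 and Lhcgr were above background on 0 membranes, as were the liver markers Apoa1, Cyp2c11 and the Cyp3a spot. Among the markers of aldosterone-responsive epithelium, Nr3c2 was above background on 1 membrane and Scnn1a, Scnn1b, Scnn1g, Avpr2 and Sgk1 on 0.

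Hsd11b2 was a very bright spot in both conditions, while the other 3 members lay at or near background. In normoxia Hsd11b2 had intensities of 62837, 36560 and 65535 (membranes 1 to 3). In chronic hypoxia it had 65271, 64670 and 59796. It was above background on all 6 membranes, as were 4.14% of the genes. Only normoxia membrane 2 was clearly lower, and the values of the groups overlapped. The highest value in the files, and their ceiling, is 65535, and Hsd11b2 was within 5% of it on normoxia membranes 1 and 3 and chronic hypoxia membranes 1 and 2. Its rank by brightness was 7, 6 and 1 in normoxia, the last in a tie at the ceiling. In chronic hypoxia the rank was 3, 4 and 6. By mean rank it was in place 3 of 1185, behind acetylcholinesterase (Ache) and endothelial nitric oxide synthase (Nos3), a fact that was known when the family was chosen.

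**Figure D1:**
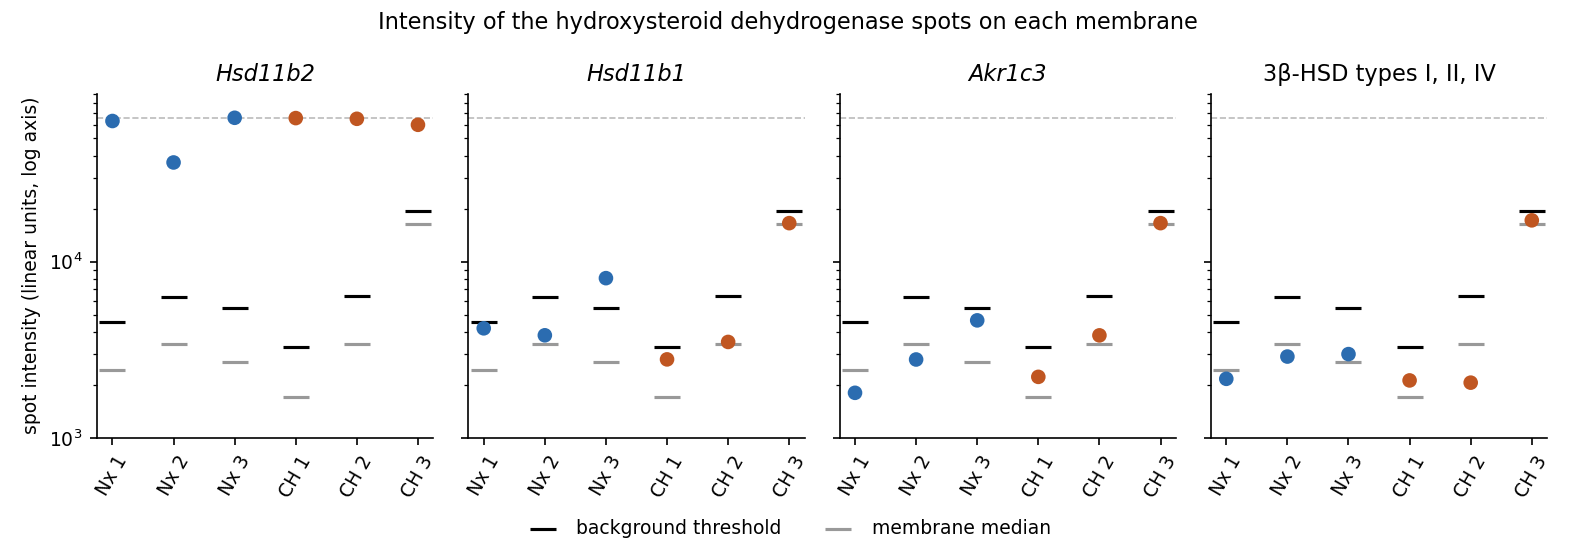
Spot intensity (log axis) of the 4 hydroxysteroid dehydrogenase spots on normoxia (Nx, blue) and chronic hypoxia (CH, orange) membranes 1 to 3, with each membrane's median (grey bar), its background threshold (black bar) and the ceiling of 65535 (dashed). Hsd11b2 is far above the threshold on all 6 membranes, Hsd11b1 exceeds it on normoxia membrane 3 alone, and the other spots stay below it.

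The membrane medians give the level of an ordinary spot and show how far Hsd11b2 stood out. Hsd11b2 exceeded the median by 60410, 33151 and 62854 intensity units on normoxia membranes 1 to 3. On the chronic hypoxia membranes it exceeded the median by 63567, 61261 and 43385. Normoxia membrane 2, with the low value, had a brightest spot of 58956, below the ceiling, and a median of 3409. The low excess on chronic hypoxia membrane 3 went with its high median. Hsd11b2 was at the ceiling on normoxia membrane 3 and within 5% below it on 3 others, so these numbers do not order the groups.

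The Hsd11b2 spot lies in a stretch of the array where nearly every spot was bright. Position codes name a section, a numbered line of 14 spots and a letter within it, and the sources used here do not state how the codes map to distance on the membrane. In line C10, which holds Hsd11b2, 13 of 14 spots were above background on all 6 membranes, and calmodulin was above it on 2. Lines C09 to C11 held 40 of 42 spots above background on at least 3 membranes, against 112 of 1143 spots (9.80%) elsewhere. Of 84 lines in sections A to F, 3 had 13 or more such spots, and these were C09, C10 and C11. The next highest line had 9, and 44 lines had 0. The lines C05 to C07, which hold the other 3 members, had 1 such spot of 42.

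**Figure D2:**
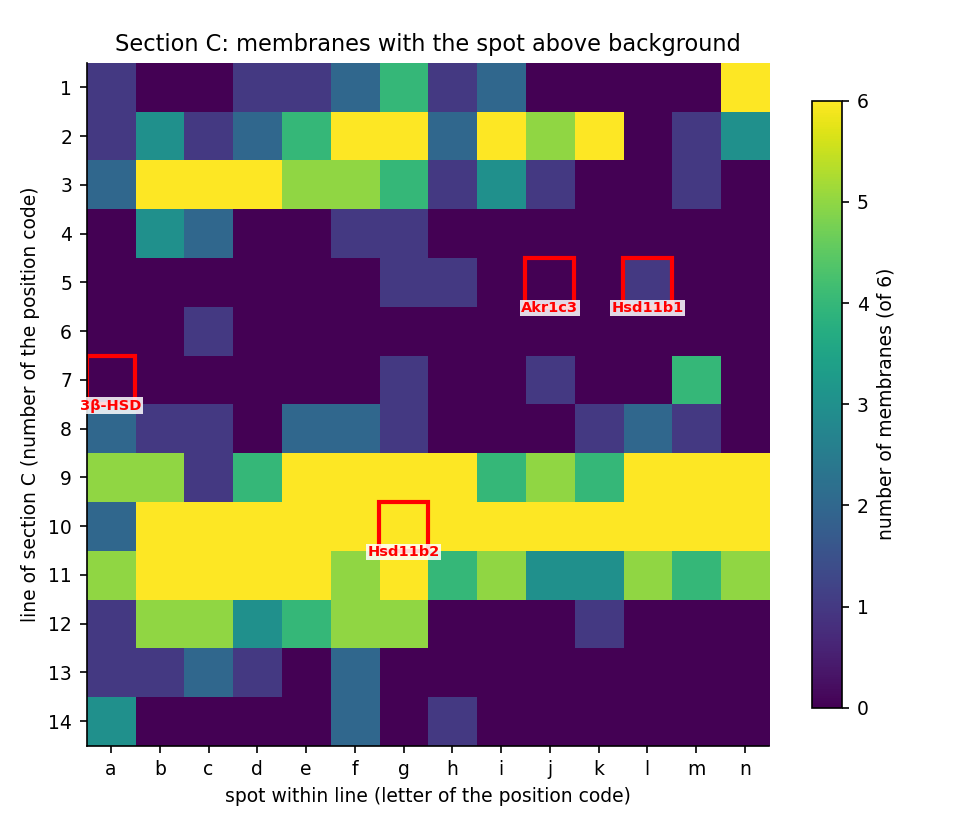
Section C of the array by position code (line against letter), coloured by the number of membranes out of 6 on which each spot was above background, with the 4 members outlined in red. Hsd11b2 lies within the bright lines 9 to 11, and the other members lie in the dim lines 5 and 7.

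Line C10 carries a mixed set of enzymes, among them uricase, ceruloplasmin, carbonic anhydrases, aldehyde dehydrogenase 2 and Ache. The glomus marker Dbh and the endothelial marker Nos3, both above background on 6 membranes, lie in the same line. Of the other endothelial markers on the array, Edn1 was above background on 3 membranes and Kdr and Flt1 on 0. Within line C10, Hsd11b2, Ache and Nos3 were all at the ceiling on normoxia membrane 3. Hsd11b2 ranked 2, 2, 3, 2 and 4 on normoxia membranes 1 and 2 and chronic hypoxia membranes 1 to 3. Hsd11b2 was chosen with its high rank on these membranes known, so a comparison with single neighbours was close to fixed in advance. It was brighter than the spots of all 4 neighbouring codes on all 6 membranes. In the same line these were carbonic anhydrase 5 (22160 to 65444) and GABA transaminase (22109 to 50991). In the adjoining lines they were dopa/tyrosine sulfotransferase (4607 to 34771) and ribosomal protein L11 (15431 to 46631). On normoxia membrane 3 the carbonic anhydrase 5 spot, at 65444, was also near the ceiling. The 10 spots nearest by code that were above background on no membrane had a median of 2943, 4130 and 4177 on normoxia membranes 1 to 3, against membrane medians of 2427, 3409 and 2681. In chronic hypoxia their median was 1725.5, 2941 and 16999, against 1704, 3409 and 16411. These 10 spots were chosen as dim and lie outside lines C09 to C11, where every spot was above background on at least 1 membrane. Their medians therefore cannot show whether background was raised within those lines. Whether position on the membrane takes part in the Hsd11b2 signal was not tested.

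**Figure D3:**
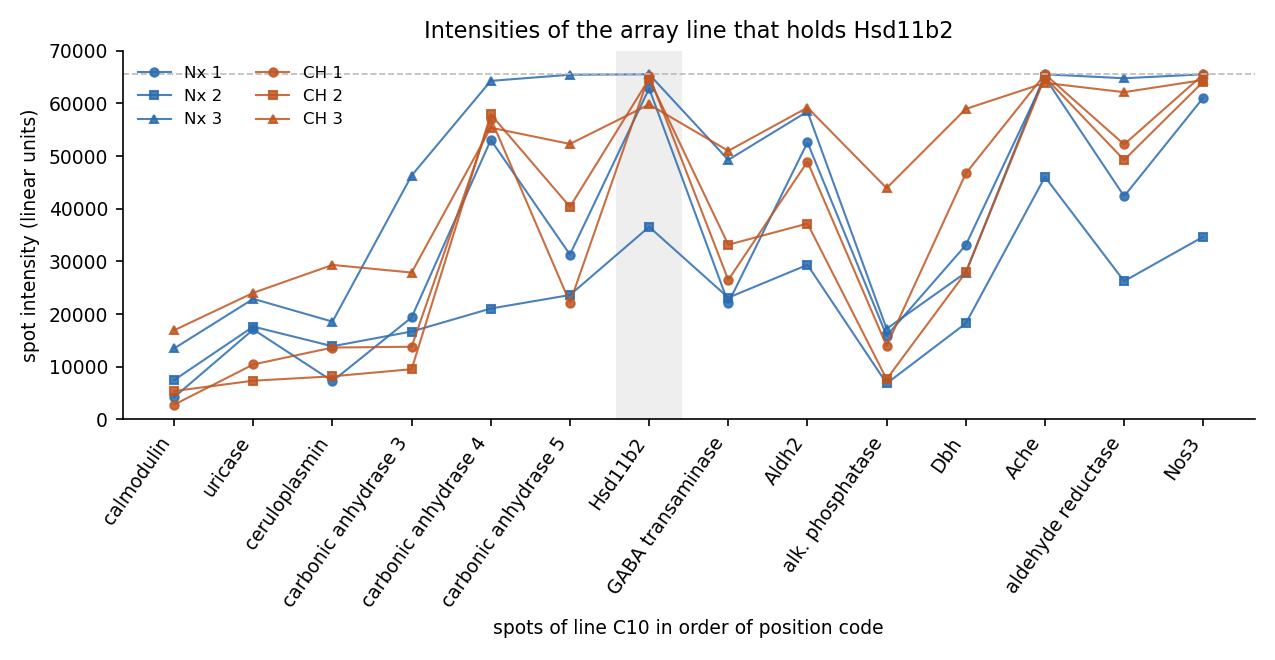
Intensity of the 14 spots of line C10 in the order of their codes, 1 line per membrane (normoxia blue, chronic hypoxia orange, markers by membrane number), with the ceiling dashed and Hsd11b2 shaded. Hsd11b2 is a local peak between carbonic anhydrase 5 and GABA transaminase on all 6 membranes, and its high rank was known when it was chosen.

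The comparison of chronic hypoxia with normoxia asks how low oxygen alters expression in these cells, and none of the 4 members changed past the threshold. Intensities were background-corrected, put on a log2 scale and quantile normalized, which gives all membranes the same distribution of values, and were tested with limma over 1038 genes. At a limma adjusted p under 0.05, 0 of 4 members were called, against 0% of the 1038 genes. At an unadjusted p under 0.05 there were also 0 of 4 members, against 75 genes (7.23%). The normalized groups did not overlap for 0 of 4 members, against 13.9% of the genes. Precision is limited by having only 3 membranes in each group. An exact permutation test of 3 against 3 membranes has 20 assignments and cannot go below 0.10. In these cultures fewer cells of a type and less RNA per cell cannot be told apart.

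The normalized log2 intensity of Hsd11b2 was 15.68, 15.70 and 15.78 in normoxia. In chronic hypoxia it was 15.81, 15.75 and 15.70. The groups overlapped, with means of 15.72 ± 0.05 (SD, n = 3) and 15.75 ± 0.06 (SD, n = 3). The difference, chronic hypoxia minus normoxia, was 0.03 with a 95% interval from -1.11 to 1.18 (limma adjusted p = 0.996, two-sided exact permutation p = 0.6). The interval is wide because limma's SE of 0.52 draws on the spread of all genes. Quantile normalization turns a spot among the brightest into little more than its rank, and 4 of the 6 values were near the ceiling, so 0.03 is not an exact difference and no fold is given. Under the other background corrections and normalizations the difference stayed above 0, from 0.03 to 0.38. The 14 spots of line C10 had a median difference of 0.20, with 10 higher and 4 lower in chronic hypoxia, and 0 passed. For Hsd11b2 the authors' deposited table held 65699 in chronic hypoxia against 49476 in normoxia, which is 1.33 times as much. These are averages over membranes under the authors' own normalization, and 65699 lies above the ceiling of the membrane values. Values near the ceiling therefore limit this ratio too, and it is not an exact fold.

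Hsd11b1, the enzyme that regenerates active glucocorticoid, was near background. In normoxia its intensities were 4189, 3824 and 8067 (membranes 1 to 3). In chronic hypoxia they were 2792, 3506 and 16551. It was above background on normoxia membrane 3 alone. The value of 16551 lies close to that membrane's median of 16411. The normoxia mean of normalized log2 intensity was 11.54 ± 0.63 (SD, n = 3). The chronic hypoxia mean was 10.95 ± 0.57 (SD, n = 3). The difference was -0.59 with a 95% interval from -1.91 to 0.74 (limma adjusted p = 0.832, two-sided exact permutation p = 0.2), and the groups overlapped. No fold is given, because against the lowest detectable level in chronic hypoxia the normoxia mean gives a bound under 1. Without normoxia membrane 3 the difference was -0.33. The spots of the neighbouring codes, for Lpl, Cyp11a1, hepatic triacylglycerol lipase and Fdft1, were above background on 0 membranes. Hsd11b1 is listed in the authors' deposited table with 1782 for normoxia and with 0 for chronic hypoxia.

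The spot for 20-alpha-hydroxysteroid dehydrogenase (Akr1c3) was not above background on any membrane. Its intensities were 1804, 2788 and 4648 in normoxia and 2222, 3821 and 16551 in chronic hypoxia, membranes 1 to 3. Normoxia membrane 3 was again the highest of its group relative to the membrane median. On the normalized log2 scale normoxia averaged 10.28 ± 1.02 (SD, n = 3). Chronic hypoxia averaged 10.91 ± 0.25 (SD, n = 3). The difference of 0.62 (SE 0.64, limma adjusted p = 0.832, two-sided exact permutation p = 0.4) compares spots at background and is not a fold. Without normoxia membrane 3 it was 1.21, and without normoxia membrane 1 it was 0.27. The neighbouring spots, for Srd5a2, Lpl, Cyp17a1 and pancreatic lipase related protein 2, were likewise above background on 0 membranes. The authors' deposited table listed this gene at 0 in both conditions.

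The combined spot for the 3-beta enzymes of types I, II and IV was also above background on 0 membranes. Its intensities were 2166, 2897 and 2991 in normoxia and 2121, 2060 and 17167 in chronic hypoxia, membranes 1 to 3. Chronic hypoxia membrane 2 gave the lowest value relative to its membrane, at rank 1077 of 1185. On the normalized log2 scale normoxia averaged 10.29 ± 0.36 (SD, n = 3). Chronic hypoxia averaged 10.28 ± 1.33 (SD, n = 3). The difference of -0.01 (SE 0.71, limma adjusted p = 1.00, two-sided exact permutation p = 1) compares spots at background and is not a fold. It was 0.18 without normoxia membrane 3 and 0.77 without chronic hypoxia membrane 2, and it also changed sign under median scaling (0.02) and without background correction (0.05). Of its neighbours, Cyp2c11 and steroid sulfatase were above background on 0 membranes and cytochrome P-450 4F5 on 2. The authors' deposited table listed this spot at 0 in both conditions.

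The membranes were grouped by the step size of their values, called a format here. This grouping was inferred from the values alone, and what gave rise to the steps was not tested. The step was 51.5 on normoxia membrane 1 and chronic hypoxia membrane 1. It was 103 on normoxia membranes 2 and 3 and chronic hypoxia membrane 2, and neither on chronic hypoxia membrane 3. Within the first format the Hsd11b2 difference was 0.13 and within the second 0.01. The Hsd11b1 difference was -0.22 and -0.81, that of Akr1c3 1.61 and 0.25, and that of the 3-beta spot 0.88 and -1.61. Directions within the formats were the same for Hsd11b2, Hsd11b1 and Akr1c3 and opposite for the 3-beta spot. These values rest on 1 or 2 membranes a side and carry no test. With the format as a block in limma the differences were 0.06 for Hsd11b2, -0.56 for Hsd11b1, 0.83 for Akr1c3 and -0.55 for the 3-beta spot, and 0 of 4 passed. Chronic hypoxia membrane 3 formed a block of its own in that fit, so it added nothing to these differences. With chronic hypoxia membranes 1 and 3 averaged and counted as 1, the differences were 0.03 for Hsd11b2, -0.68 for Hsd11b1, 0.62 for Akr1c3 and -0.40 for the 3-beta spot, and again 0 of 4 passed (limma adjusted p from 0.917 to 0.993).

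Other genes of steroid and sterol biology were mostly at background, as were most genes of the array. The list, drawn from terms in the array names and chosen with earlier results of these data known, held 42 spots besides the 4 members. Of these, 35 (83.3%) were above background on 0 membranes and 4 (9.52%) on at least 3, beside 73.2% and 12.8% of all genes on the array. In limma 34 were tested, with 16 higher and 18 lower in chronic hypoxia, and 0 passed. Their median difference was -0.06, beside 0.03 over all 1038 genes, of which 51.8% were higher. The list's median was 0.22 with chronic hypoxia membranes 1 and 3 counted as 1, 0.18 without chronic hypoxia membrane 3, 0.03 without chronic hypoxia membrane 1, 0.04 without normoxia membrane 2 and -0.33 without normoxia membrane 1, so its sign is not stable.

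The list's spots for enzymes that make or remove steroids were above background on 0 membranes, as were 73.2% of all genes on the array. With 4 spots in each of these roles, this does not set them apart from the array. Of the 4 spots sorted as synthesis, Cyp11a1 (side-chain cleavage), Cyp17a1, aromatase (Cyp19a1) and a 3-beta enzyme of type III, 0 were above background on any membrane. The type III enzyme belongs to the same family, but its array name does not contain the family term. That name also lists progesterone reductase, so its place under synthesis is a choice of sorting. The type III spot differed by -1.49 (SE 0.79, limma adjusted p = 0.645) with overlapping groups, at background on all 6 membranes, so this is not a fold. Of the 4 spots for steroid metabolism (Srd5a1, Srd5a2, steroid sulfatase and a hydroxysteroid sulfotransferase), 0 were above background. The 5-alpha-reductase Srd5a1, which makes dihydrotestosterone, had 3099, 5163 and 2472 in normoxia and 1084, 2375 and 15823 in chronic hypoxia. Its normalized values did not overlap between groups and were lower in chronic hypoxia (limma unadjusted p = 0.029, adjusted p = 0.645), but the spot was at background on all 6 membranes. The groups did not overlap for 13.9% of all tested genes.

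**Figure D4:**
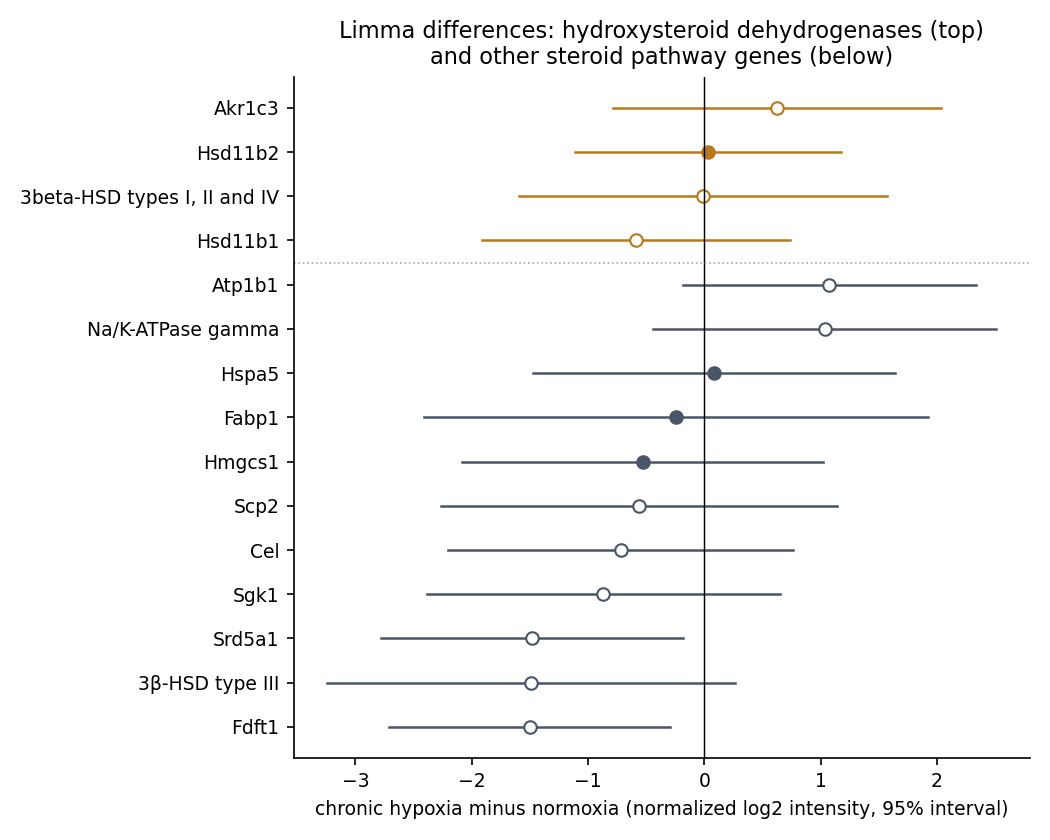
Limma differences in normalized log2 intensity (chronic hypoxia minus normoxia) with 95% intervals for the 4 members (top, brown) and for tested genes of the steroid pathway list named in the text (below, grey). A filled point had signal above background in both groups, and an open point did not and gives no fold. No gene shown passed the adjusted threshold, and the intervals of Srd5a1 and Fdft1, both at background, exclude 0.

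Spots for steroid receptors and for sodium transport were also dim. The mineralocorticoid receptor Nr3c2 had intensities of 21071, 2169 and 1030 in normoxia (membranes 1 to 3). In chronic hypoxia it had 978, 4842 and 15683. It was above background on normoxia membrane 1 alone and did not pass the filter on low values, so it was not tested. Nr3c2 is listed in the authors' deposited table with 6295 for normoxia and with 0 for chronic hypoxia. The glucocorticoid receptor Nr3c1, the estrogen receptor Esr2 and the orphan receptor Nr4a3 were above background on 0 membranes. Of 11 spots for sodium transport, which aldosterone stimulates in epithelium, 0 were above background on any membrane, and 73.2% of all genes were above it on none. They included the channel subunits Scnn1a, Scnn1b and Scnn1g, the kinase Sgk1 (limma adjusted p = 0.764) and the sodium pump subunits Atp1b1 and gamma (adjusted p = 0.645 and 0.720). The normalized values of the gamma spot did not overlap between groups, as for 13.9% of all tested genes. They were higher in chronic hypoxia by 1.04 (limma unadjusted p = 0.149). Atp1b1 was higher in chronic hypoxia by 1.07 (limma unadjusted p = 0.087), with overlapping groups. Both differences compare spots at background and are not folds. The stress-axis genes Crh, Crhbp and Crhr2 were above background on 0 membranes.

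Signal within the list came mainly from enzymes and carriers of sterol supply, where 3 of 12 spots were above background on at least 3 membranes. Hmgcs1, a cytosolic enzyme at the start of cholesterol synthesis, had 3612, 9725 and 7137 in normoxia and 3048, 3612 and 22935 in chronic hypoxia. It was above background on 3 membranes and differed by -0.53 (SE 0.70, limma adjusted p = 0.863). The lipid carrier Fabp1 was above background on 4 membranes and differed by -0.24 (SE 0.98, limma adjusted p = 0.969), with -3.20 within the format of step 103 and 1.73 within that of step 51.5. The sterol carrier Scp2 and the esterase Cel were above background on 1 normoxia membrane each. Squalene synthase (Fdft1) was at background on all 6 membranes. Its normalized values did not overlap between groups, as for 13.9% of all tested genes, and were lower in chronic hypoxia (limma unadjusted p = 0.020, adjusted p = 0.645). The chaperone Hspa5, above background on 3 membranes, entered the list through an older name that refers to steroidogenesis. It differed by 0.08 (SE 0.70, limma adjusted p = 0.991), with 0.94 within the format of step 103 and -1.22 within that of step 51.5.

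Hsd11b2 was the 1 member above background on at least 3 membranes, and genes with a like pattern over the 6 membranes were sought among the other genes of that kind. Those with the highest Pearson correlation of normalized log2 intensity were the surface glycoprotein CD9 (r = 0.84, Spearman rho 0.90), ribosomal protein S11 (r = 0.84, rho 0.99) and ribosomal protein L13 (r = 0.66, rho 0.49). Without chronic hypoxia membrane 1 and normoxia membrane 3, the farthest from the median of Hsd11b2, r was 0.70, 0.81 and 0.41. The spots of S11 and L13 lie in line C11, next to the line of Hsd11b2. The normalized values of Hsd11b2 span only 15.68 to 15.81, so these correlations describe small shifts of rank among bright spots.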

How the data were processed

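Per the labels' protocols, AtlasImage V2.0 quantified phosphorimager scans of Atlas Rat 1.2 membranes. The deposited files hold 1 linear intensity per gene and membrane, with background included and no scaling between membranes. A further deposited table holds 1 intensity per gene and condition, which the authors averaged over 3 membranes and normalized to the average signal, and its cut-offs were not found in the labels. Its columns are the authors' values and carry no SD.

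Intensities were corrected with normexp (offset 50), log2 transformed and quantile normalized. The test was limma 3.58.1 (lmFit and eBayes, R 4.3.3) with a term for group. It covered the 1038 genes that passed the 25th percentile of a membrane on 3 or more of the 6, and p-values were adjusted over them by Benjamini-Hochberg. The limma script was tested on simulated data. The exact permutation tests enumerated all 20 assignments of the membranes in Python 3.11.15 with numpy 2.4.6. Of the list, genes above background on at least 1 membrane and 6 others with the smallest p were named, except for items that are not reported here. Of 49 symbols or names assigned by hand from the array names, 48 were in the RefSeq gene table of assembly GRCr8. Spelling variants of the list's terms were accepted, and its roles were sorted by hand with the array names in view. Lines C09 to C11 were singled out after their values were seen. Fits without a membrane were normalized over the other 5. No coordinates are given, because the membranes are tied to no build. Alternatives covered background, scaling, filters, weights, blocks, left-out membranes, and chronic hypoxia membranes 1 and 3 averaged into 1. The members and lists were chosen with earlier results of these data known.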

Additional observations from a re-analysis of the deposited data

How the results depend on the processing

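No member passed an adjusted p of 0.05 under any of the alternatives that could be tested, where the lowest limma adjusted p was 0.601 (the 3-beta spot without chronic hypoxia membrane 2). Over all genes 0 passed under each of 18 alternatives, with 10 to 146 genes at an unadjusted p under 0.05. Leaving out 1 membrane in turn gave differences from 0.003 to 0.08 for Hsd11b2, from -0.96 to -0.33 for Hsd11b1, from 0.27 to 1.21 for Akr1c3 and from -0.39 to 0.77 for the 3-beta spot. The 3-beta spot changed sign without background correction (0.0513), with median scaling (0.0176) and with array weights (0.52), and also without normoxia membrane 3 (0.18) and without chronic hypoxia membrane 2 (0.77). The cause was not tested. Among values that carry no test, those that moved by more than the spread between membranes were Akr1c3 within the format of step 51.5 (1.61), the 3-beta spot within the format of step 103 (-1.61), and Hsd11b2 within the format of step 51.5 (0.13) and in the log2 ratio from the authors' deposited table (0.41). The Hsd11b2 difference also moved by more than that spread without normalization (0.13), with cyclic loess (0.29) and with median scaling (0.38), with no change of direction or call. With a threshold of 2 times the spread, Akr1c3 was above background on 1 membrane and Hsd11b1 on 3. At 5 times, and against the nearest dim spots, the counts of all 4 members were as reported. The dim spots used for Hsd11b2 lie outside lines C09 to C11, so that comparison cannot show a raised background within those lines. The median of the steroid list ranged from -0.33 to 0.22, the highest with chronic hypoxia membranes 1 and 3 counted as 1. Without normalization the median gene shifted by -0.17.

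With the membrane number as a replicate block, the differences are by construction those without it, and 0 genes passed. Deviations from the group means of membranes with the same number correlated at 0.09, 0.11 and 0.02. Membranes 1 and 2 correlated best with their own number, and membranes 3 did not. With 3 membranes in each group, these values cannot tell whether membranes with the same number belong together. Near the ceiling, signal over background limits what can be seen for Hsd11b2, and at background it limits the other members.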
